A study of Triticum dicoccoides with 12 samples.

Results

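A set of 158 probe sets of the Affymetrix wheat array gave a higher signal in roots of the wild emmer genotype Y12-3 than in roots of A24-39, whether the plants were short of water or not. They were taken from the 61115 probe sets tested by a rule on the data themselves: the mean of the 3 Y12-3 arrays had to exceed the mean of the 3 A24-39 arrays by at least 0.8 unit in water-stressed roots and again in well-watered roots. The genotype differences therefore chose the members, and they are given as a description, with no test. Total RNA was measured in 4 groups of 3 arrays each: Y12-3 after 7 days without water, A24-39 after 7 days without water, well-watered Y12-3 and well-watered A24-39. All plants were 4 weeks old and grown in a greenhouse, and water was withheld from the stage of 4 leaves. From published work, Y12-3 is known to resist drought and A24-39 to be susceptible to it. The arrays of a group are labelled as biological replicates, but whether each came from 1 plant or a pool is not given, so p-values measure the spread between these samples.

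Wild emmer, Triticum turgidum subsp. dicoccoides, is the tetraploid wild ancestor of durum wheat and an ancestor of bread wheat. It carries an A and a B subgenome, so most genes exist as near-identical homoeologous copies whose transcripts can bind the same probes. The array holds short probes, grouped in sets, that were made to match transcripts of bread wheat. A lasting difference in signal between genotypes can come from the amount of a transcript, from a gene copy that only some lineages carry, or from sequence differences under the probes. The array values cannot tell these apart. In whole roots, fewer cells of a type and less RNA per cell cannot be told apart either.

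Values are deposited units on a log-like scale whose base is not given in the sources used here, so differences are in units and no fold is given. The array means lay near 0. Of the 1273 tested probe sets with a gene symbol, 1254 had a placeholder beginning with LOC, and 0 of their gene identifiers matched RefSeq's gene table for WEW_v2.1. Among the members 3 had a symbol, 2 for LOC606308 and 1 for LOC100037609, and the other 155 are known by their array names only. Background was judged by 23 control probe sets without a wheat target, the brightest of which averaged -0.152 over the 12 arrays. The shoot markers matched by symbol, 4 probe sets of FBP (fructose bisphosphatase) and petC (a photosynthetic electron transport protein), had group means of -0.782 to -0.105, and 1 of the 4 had a mean above that background limit. No list of root markers could be matched.

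The genotype differences of the members ranged from 0.82 to 2.40 units in stressed roots, with a median of 1.28, and from 0.81 to 2.82 in well-watered roots, with a median of 1.13. Over all 61115 probe sets the medians were -0.02 and -0.003. The difference reached 0.8 unit in 339 probe sets of stressed roots, which is 0.555% of those tested, and in 276 of well-watered roots, which is 0.452%, and 158 probe sets are in both. In 94 of them both differences were at least 1 unit, and in 4 both were at least 2 units. The members nearest to the threshold were TaAffx.4964.1.S1_at and Ta.9648.2.S1_at, each with a lower difference of 0.81 in well-watered roots. Just outside lay Ta.20447.1.S1_at, with 0.797 in stressed roots, and Ta.262.1.S1_x_at (LOC542869), with 0.796 in well-watered roots. The 3 Y12-3 arrays lay above the 3 A24-39 arrays without overlap for 155 members in stressed roots, against 15% of all probe sets, and for 153 in well-watered roots, against 8.44%. They did so in both waterings for 150 members, against 4.52% of all probe sets, figures that follow from the rule and carry no independent support.

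The A24-39 arrays differed from one another on these probe sets, and this bears on every result below. The median signal of the members was 1.34, 1.35 and 1.33 on the stressed Y12-3 arrays 1 to 3, against -0.14, -0.22 and 0.17 on the stressed A24-39 arrays. It was 1.40, 1.34 and 1.38 on the well-watered Y12-3 arrays, against 0.07, 0.57 and -0.32 on the well-watered A24-39 arrays. The Y12-3 arrays of a group thus differed little in this median, while well-watered A24-39 arrays 2 and 3 lay almost 1 unit apart. Array 2 was the brightest of the 3 well-watered A24-39 arrays for 154 of the 158 members, or 97.5%, against 24.3% of all probe sets. Array 3 was the dimmest for 93.7%, against 29.9% of all probe sets. Among stressed A24-39 arrays, array 3 was the brightest for 146 members, or 92.4%, against 37% of all probe sets. The median SD within a group was 0.151 for stressed A24-39 and 0.102 for stressed Y12-3, and 0.396 for well-watered A24-39 and 0.140 for well-watered Y12-3. Over all probe sets these medians were 0.0438 and 0.0430 in stressed roots, and 0.0593 and 0.0574 in well-watered roots.

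The 189 probe sets with the opposite pattern, at least 0.8 unit lower in Y12-3 in both waterings, showed the same arrays apart. Well-watered A24-39 array 2 was the dimmest of its group for 63% of them, and stressed A24-39 array 3 for 61.9%. Among the Y12-3 arrays, those with the same numbers were the brightest of their groups on these probe sets, well-watered array 2 for 67.2% and stressed array 3 for 72.5%. On these 4 arrays, signals thus lay nearer to those of the other genotype than on the other arrays of their groups. Other Y12-3 arrays also stood apart on the 189 probe sets. Stressed array 1 was the dimmest for 80.4%, against 32% of all probe sets, and well-watered array 3 for 56.6%, against 48.1%. For the members the nearer signals were seen in the A24-39 arrays. In Y12-3, well-watered array 2 was the dimmest for 22.8% and stressed array 3 for 31.6%. To keep the choice of members apart from this comparison, the rule was applied again without each replicate number. Of the 176 probe sets chosen without the arrays numbered 2, 174 were brighter on well-watered A24-39 array 2 than the mean of the other 2 arrays of that group, by a median of 0.53 unit. Of the 116 chosen without the arrays numbered 3, 109 were brighter on stressed A24-39 array 3, by a median of 0.32 unit. On well-watered A24-39 array 3 only 3 of those 116 were above the mean of the other 2 arrays. The cause of these shifts was not tested, and whether RNA or seed of both genotypes was present in these samples was not tested. The main counts are also given without well-watered A24-39 array 2 and stressed A24-39 array 3, an alternative added after seeing the data. Without them the rule gave 199 probe sets, 155 of them among the 158.

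The genotype difference was also seen in arrays left out of the means used for the choice. Each such check had 1 array per group. All probe sets of a check were read on the same arrays, so their counts are not counts of replicates. The rule itself was set with earlier results of these data known. The probe sets chosen in this way were not all members. The shares of all probe sets given for comparison include those at background. Of the 159 probe sets chosen on the arrays numbered 2 and 3, 137 passed 0.8 unit in both waterings on the arrays numbered 1, which is 86.2%, against 0.265% of all probe sets. Of the 116 chosen without the arrays numbered 3, 94 or 81% passed on those arrays, against 0.301%. Of the 176 chosen without the arrays numbered 2, 64 or 36.4% passed, against 0.119%. On the held-out arrays numbered 2 the median difference of these 176 was 1.38 in stressed and 0.68 in well-watered roots, against 1.22 and 1.26 on the arrays used to choose them. The lower share came with the well-watered pair, where A24-39 array 2 was bright. Differences above 0 in both waterings were found for 159 of 159, 175 of 176 and 116 of 116 probe sets with the arrays numbered 1, 2 and 3 held out.

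The members with the highest sum of both differences are described first, with at most 1 probe set per transcript cluster, the group of probe sets that share the first 2 fields of their name. Ta.9502.1.A1_a_at had 3.73, 3.56 and 3.74 units on the stressed Y12-3 arrays 1 to 3, against 0.75, 0.98 and 2.45 on the stressed A24-39 arrays. In well-watered roots it had 3.82, 3.83 and 3.49 units in Y12-3, against 1.61, 2.66 and -0.005 in A24-39. Its Y12-3 arrays all lay above its A24-39 arrays, and the A24-39 values spread over more than 2 units among well-watered arrays, with array 3 near background and array 2 high. The differences were 2.28 ± 0.59 in stressed and 2.29 ± 0.59 in well-watered roots (moderated SE of limma, here and below for differences).

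TaAffx.56499.1.S1_s_at had 3.23, 3.12 and 3.36 units in stressed Y12-3, against 0.38, 0.62 and 1.92 in stressed A24-39. In well-watered roots the values were 3.33, 3.42 and 3.05 in Y12-3, against 1.22, 2.19 and -0.19 in A24-39. The groups did not overlap, and well-watered A24-39 array 3 was under the background limit. Ta.7158.1.S1_at had 2.38, 2.39 and 2.39 units in stressed Y12-3, against -0.04, -0.11 and 0.68 in stressed A24-39. Well-watered roots gave 3.06, 3.04 and 2.73 in Y12-3, against 0.95, 1.65 and -0.33 in A24-39. The Y12-3 arrays lay close together, and the A24-39 arrays ran in the order just described, with array 3 highest under stress and array 2 highest when well-watered. Ta.2434.3.A1_at, with the largest difference of all members under stress, had 3.21, 3.12 and 3.12 units in stressed Y12-3, against 0.52, 0.33 and 1.40 in stressed A24-39. In well-watered roots it had 2.75, 2.87 and 2.32 in Y12-3, against 0.84, 1.77 and -0.23 in A24-39. Its differences were 2.40 ± 0.43 and 1.85 ± 0.43 units. The 3 other probe sets of its cluster had median differences of 0.018 in stressed and -0.015 in well-watered roots, with 1 above 0 in both. Ta.13168.1.S1_a_at had 1.97, 1.09 and 1.41 units in stressed Y12-3, against -0.54, -0.41 and 0.46 in stressed A24-39. Well-watered arrays gave 3.48, 3.09 and 2.93 in Y12-3, against 0.95, 1.56 and -0.39 in A24-39. The stressed A24-39 mean of -0.16 was just under the background limit, with array 3 above it and the other arrays under it. Signal near background limits that difference of 1.65.

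LOC606308 was the only symbol with more than 1 member. Its probe set Ta.21262.1.A1_at had 1.43, 1.16 and 1.35 units on the stressed Y12-3 arrays, against -0.13, -0.04 and 0.25 on the stressed A24-39 arrays. In well-watered roots it had 3.70, 3.95 and 4.10 units in Y12-3, against 0.85, 1.71 and 0.73 in A24-39. The genotypes did not overlap in either watering, and within each genotype the stressed arrays lay under the well-watered ones. Y12-3 exceeded A24-39 by 1.29 ± 0.22 under stress and by 2.82 ± 0.22 in well-watered roots, the largest well-watered difference of the members. The stressed A24-39 mean of 0.03 units was near background, which limits the stressed difference. The probe set Ta.21262.1.A1_x_at differed by 1.21 ± 0.20 and 2.66 ± 0.20 units. Both carry the same cluster name and may share probe sequence, so they are not independent measurements.

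LOC100037609 entered through Ta.1848.1.S1_s_at, which had 3.10, 3.23 and 2.68 units in stressed Y12-3, against 2.82, 2.10 and 1.61 in stressed A24-39. Its well-watered values were 3.77, 3.34 and 3.04 in Y12-3, against 2.71, 3.00 and 1.94 in A24-39. The stressed groups overlapped, and the differences of 0.83 ± 0.34 and 0.83 ± 0.34 were close to the threshold. Its other probe sets differed less. Ta.1848.2.S1_s_at differed by 0.18 and 0.33, and Ta.1848.2.S1_x_at by -0.07 and 0.25 units in stressed and well-watered roots.

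Every member had both Y12-3 means above the background limit, which the rule all but fixes, since it puts them at least 0.8 unit above the A24-39 means. The A24-39 means were above it for 89 members in stressed and 116 in well-watered roots. Members with both A24-39 means at or under the limit numbered 42, or 26.6%. All 4 means were above it for 89, or 56.3%, and in the remaining 27 only the stressed A24-39 mean was at or under it. The 42 had median differences of 1.13 in stressed and 0.94 in well-watered roots. Each of their differences is measured against a mean at background, and is a lower bound in signal. The 89 with all means above the limit had medians of 1.41 and 1.23 units. The count of 42 depended on the arrays and on the limit. It was 60 without well-watered A24-39 array 2, 20 without well-watered A24-39 array 3, and 72 without array 2 of the well-watered and array 3 of the stressed A24-39 group. With the limit set at 0.02 by the brightest of 62 reporter-gene controls, added once the data were known, it was 65.

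The members brightest in A24-39 were Ta.28354.3.S1_x_at, Ta.1848.1.S1_s_at, Ta.28553.4.S1_x_at and TaAffx.70285.1.S1_at. Ta.28553.4.S1_x_at had 2.77, 2.81 and 2.82 units in stressed Y12-3, against 1.95, 1.80 and 2.03 in stressed A24-39, groups without overlap. In well-watered roots it had 3.47, 3.61 and 3.05 in Y12-3, against 2.28, 2.70 and 1.83 in A24-39. Ta.28354.3.S1_x_at, the brightest, had 4.31, 3.99 and 4.20 units in stressed Y12-3, against 3.10, 2.76 and 3.60 in stressed A24-39. Its well-watered values were 3.47, 3.78 and 3.48 in Y12-3, against 1.97, 2.90 and 1.27 in A24-39. The genotypes of both probe sets did not overlap, and their A24-39 signal was far above background, so these differences are not bounds. Other probe sets of their clusters did not share them. In Ta.28553, the 14 others had median differences of -0.18 in stressed and 0.01 in well-watered roots, with 6 above 0 in both. In Ta.28354, the 5 others had medians of -0.28 and -0.09, with 0 above 0 in both.

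The 158 members came from 139 transcript clusters. Of these clusters 126 held 1 member and 13 held 2 to 4, with 32 members in all. For 80 clusters the array carries a single probe set. The clusters with the most members were Ta.303 and Ta.7259 with 4 each, followed by Ta.9502 and Ta.9561 with 3 each. All 4 probe sets of Ta.7259 were members. Ta.7259.1.S1_at had 2.13, 2.11 and 2.13 units in stressed Y12-3, against 0.03, -0.10 and 0.42 in stressed A24-39, and 2.22, 2.26 and 2.43 in well-watered Y12-3, against 0.43, 1.23 and -0.37 in well-watered A24-39. Differences within the cluster ran from 0.95 to 2.05 units in stressed and from 0.92 to 1.87 in well-watered roots. In Ta.303, the 4 members differed by 1.18 to 1.66 units in stressed and by 1.48 to 1.78 in well-watered roots. Of its other probe sets, Ta.303.1.S1_x_at differed by 0.45 and 0.63, and Ta.303.1.S1_at lay under the background limit in all groups. In Ta.9502 the fourth probe set, Ta.9502.3.S1_at, was under that limit in all groups too. In Ta.9561 the fourth, Ta.9561.2.S1_a_at, was above it in all groups and differed by 0.41 and 0.39 units, less than the 3 members.

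Beside the members, 54 of these clusters held 255 other probe sets. Of those, 153 had at least 1 group mean above the background limit. Both genotype differences were above 0 for 91 of the 153, or 59.5%, against 42.7% of the 27513 probe sets of the whole array that met the same condition. Both were below 0 for 40, or 26.1%, against 27.6%. The median differences of the 153 were 0.07 in stressed and 0.09 in well-watered roots, and 18 of them, or 11.8%, were higher in Y12-3 by at least 0.5 unit in both waterings, against 1.6% of the 27513. A single cluster, TaAffx.128418 with 113 probe sets and 1 member, held 112 of the 255 and 46 of the 153. In the other 107, both differences were above 0 for 67, or 62.6%, the medians were 0.16 and 0.20 units, and the same 0.5 unit was reached by 16.8%. Several may share probe sequence with a member, and clusters were built from bread wheat sequences, so they need not hold 1 gene each.

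The names of the members also carry the type of the probe set. On this array the ending _at marks probes unique to a transcript, _a_at probes shared by transcripts of 1 gene, _s_at probes shared by transcripts of different genes, and _x_at sets in which some probes match other sequences. The members had 101 of type _at (63.9%), 19 _a_at (12%), 17 _s_at (10.8%) and 21 _x_at (13.3%). Among the 27513 probe sets with a group mean above background the shares were 66.6%, 10.1%, 6.58% and 16.8%. Names beginning with TaAffx made up 20.3% of the members and 31.8% of those 27513.

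Water stress was not part of the rule, and the mean response of both genotypes uses no genotype difference. This contrast is independent of the rule only where the groups have equal spread, which the members did not show. Their median SD was 0.396 in well-watered A24-39, against 0.102 to 0.151 in the other groups. The calls are therefore a description of the members and not an independent test. Most members were not called. The largest falls were those of Ta.8304.1.S1_a_at and TaAffx.56982.4.S1_at, and TaAffx.70285.1.S1_at had the largest rise. limma called 26 members changed at an adjusted p under 0.05, or 16.5%, against 24.6% of all probe sets tested, and 37 at an unadjusted p under 0.05, against 34.1%. Of the 26, 6 were higher and 20 lower under stress. That is 3.8% and 12.7% of the members, against 13.6% and 11% of all probe sets tested and 24.7% and 20% of those with a group mean above background. The median mean response was -0.06 units in the members and 0.01 over all probe sets, and its median SE was 0.129 in the members, 0.0538 in the probe sets above background and 0.0329 over all. Whether this wider error lowered the share of members called was not tested. The median SD of the members was above that of all probe sets in both genotypes, and the source of the wider error was not tested. The count was 43, 6 higher and 37 lower, without well-watered A24-39 array 3. Without well-watered A24-39 array 2 and stressed A24-39 array 3 it was 31, 17 higher and 14 lower, and after a shift of each array by its spike-in controls 32, 13 higher and 19 lower. The calls were mostly lower with all arrays. The split was nearer to even after the spike-in shift, with more lower than higher. It was also nearer to even without those 2 arrays, with more higher than lower. Without well-watered A24-39 array 2 alone the count was 35, 17 higher and 18 lower. Calls over all probe sets were not counted under these alternatives, so the changes are not read as traits of the members.

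Ta.8304.1.S1_a_at fell most. It had 1.02, 0.82 and 0.40 units in stressed Y12-3, against 3.80, 4.24 and 4.67 in well-watered Y12-3. In A24-39 it had -0.40, -0.23 and -0.39 units under stress, against 1.45, 2.63 and 2.79 when well-watered. The stressed and well-watered arrays did not overlap in either genotype, and stressed A24-39 lay under the background limit. The mean response was -3.06 ± 0.23 units (limma adjusted p = 6.75e-06), with -3.49 in Y12-3 and -2.63 in A24-39, where the A24-39 value is a lower bound in size. TaAffx.56982.4.S1_at had 0.91, -0.29 and 0.80 units in stressed Y12-3, against 3.53, 3.44 and 2.72 in well-watered Y12-3. Its mean response was -2.37 ± 0.25 (limma adjusted p = 7.3e-05), with all stressed A24-39 arrays under the background limit.

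LOC606308 fell in both genotypes on both of its probe sets. On Ta.21262.1.A1_x_at the mean response was -1.86 ± 0.14 units (limma adjusted p = 6.75e-06), with -2.58 ± 0.20 in Y12-3 and -1.13 ± 0.20 in A24-39. On Ta.21262.1.A1_at it was -1.84 ± 0.16 (limma adjusted p = 1.64e-05). The stressed A24-39 means of these probe sets, 0.05 and 0.03 units, were near background, which limits the size of the A24-39 fall. Ta.5576.2.S1_a_at had 0.76, 1.69 and 0.64 units in stressed Y12-3, against 3.20, 3.17 and 2.78 in well-watered Y12-3, and its mean response was -1.70 ± 0.30 (limma adjusted p = 0.00203). Ta.5426.2.A1_a_at had -0.37, 1.58 and -0.17 units in stressed Y12-3, against 2.59, 2.09 and 1.97 in well-watered Y12-3. In that probe set stressed Y12-3 array 2 alone was above background among the stressed arrays, and its stressed genotype difference of 0.88 ± 0.52 came with that array. Its mean response was -1.55 ± 0.37 (limma adjusted p = 0.0106), and -1.36 with an adjusted p of 0.0516 without well-watered A24-39 array 2 and stressed A24-39 array 3. Ta.13168.1.S1_a_at responded by -1.27 ± 0.32 (limma adjusted p = 0.0138). In A24-39 alone, Ta.5576.2.S1_a_at, Ta.5426.2.A1_a_at and Ta.13168.1.S1_a_at responded by -1.38, -1.23 and -0.87 and were not called (limma adjusted p = 0.0713, 0.191 and 0.296). In Y12-3 alone they responded by -2.02, -1.87 and -1.67 (limma adjusted p = 0.00772, 0.0298 and 0.0251). The members called lower that are not named singly ranged in mean response from -2.89 for Ta.8304.1.S1_x_at, a second probe set of the transcript above, to -0.37 for Ta.303.3.S1_x_at. Of the 42 members at background in A24-39, 1 was called higher and 0 lower. Of the 89 with all means above the limit 5 were called higher and 13 lower, and of the other 27, 0 were called higher and 7 lower.

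TaAffx.70285.1.S1_at rose most. It had 4.31, 3.77 and 4.21 units in stressed Y12-3, against 1.82, 1.80 and 0.98 in well-watered Y12-3. In A24-39 it had 2.99, 2.85 and 3.96 units under stress, against 0.66, 0.92 and -0.32 when well-watered. The waterings did not overlap in either genotype, while the genotypes overlapped under stress through stressed A24-39 array 3. The mean response was 2.70 ± 0.27 units (limma adjusted p = 4.05e-05). Ta.2822.2.S1_at had 2.40, 2.05 and 2.26 units in stressed Y12-3, against 1.57, 1.41 and 1.42 in well-watered Y12-3. In A24-39 it had 1.21, 1.05 and 1.48, against 0.71, 0.79 and 0.10, and its mean response was 0.74 ± 0.12 (limma adjusted p = 0.00118). In Y12-3 and A24-39 the responses were 2.56 ± 0.38 and 2.85 ± 0.38 for TaAffx.70285.1.S1_at, and 0.77 ± 0.17 and 0.72 ± 0.17 for Ta.2822.2.S1_at.

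Ta.28354.3.S1_x_at had a mean response of 0.85 ± 0.24 (limma adjusted p = 0.0264). This call was lost without any 1 of 6 arrays, with adjusted p-values of 0.0504 to 0.0664: Y12-3 well-watered 1 and 3, Y12-3 stressed 1 and 3, A24-39 well-watered 1 and A24-39 stressed 3. Ta.10914.1.S1_at had 2.08, 1.94 and 2.12 units in stressed Y12-3, against 1.17, 1.02 and 1.34 in well-watered Y12-3, and in A24-39 0.18, 0.08 and 0.50 under stress, against 0.17, 0.51 and -0.12. Its mean response was 0.47 ± 0.11 (limma adjusted p = 0.00974), with 0.87 ± 0.16 in Y12-3 and 0.07 ± 0.16 in A24-39. Ta.7167.1.A1_at had a mean response of 0.40 ± 0.10 (limma adjusted p = 0.0132), with 0.86 in Y12-3, while both A24-39 means lay under the background limit. Ta.438.3.S1_at had 0.30 ± 0.08 (limma adjusted p = 0.0209), a call lost without stressed A24-39 array 3 (adjusted p = 0.0539). Its responses were 0.57 ± 0.12 in Y12-3 and 0.04 ± 0.12 in A24-39 (limma adjusted p = 0.0063 and 0.899). Of the members bright in A24-39, Ta.28553.4.S1_x_at had -0.46 ± 0.14 (limma adjusted p = 0.032). That call was lost without any 1 of 8 arrays, with adjusted p-values of 0.056 to 0.0768: Y12-3 well-watered 1 and 2, Y12-3 stressed 1, 2 and 3, A24-39 well-watered 1, and A24-39 stressed 1 and 2. It was -0.38, with an adjusted p of 0.0634, without well-watered A24-39 array 2 and stressed A24-39 array 3 together.

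The members with the largest genotype differences mostly showed no call. The mean responses were -0.03 ± 0.42 for Ta.9502.1.A1_a_at, -0.07 ± 0.37 for TaAffx.56499.1.S1_s_at, 0.23 ± 0.30 for Ta.2434.3.A1_at and -0.57 ± 0.28 for Ta.7158.1.S1_at (limma adjusted p = 0.973, 0.935, 0.675 and 0.193). Without well-watered A24-39 array 3, Ta.7158.1.S1_at had -0.84 with an adjusted p of 0.0052. LOC100037609 had -0.38 ± 0.24 on Ta.1848.1.S1_s_at (limma adjusted p = 0.318), and -0.63 with an adjusted p of 0.0409 with array weights. Array weights gave -0.84 for Ta.7158.1.S1_at, which was also called.

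Within Y12-3 alone, limma called 28 members, against 19.2% of all probe sets, 14 higher and 14 lower, or 8.86% each way, against 11.1% and 8.1% of all probe sets. The responses within a genotype use group means that entered the rule, so these calls and those in A24-39 are a description of the members and not an independent test. The median response was 0.01 units, with a range of -3.49 to 2.56. This count fell to 16 without well-watered Y12-3 array 2, to 17 without stressed Y12-3 array 1 and to 16 without stressed Y12-3 array 3. It was 38, 24 higher and 14 lower, after the spike-in shift, which raised the Y12-3 response of every probe set by 0.107 unit. It was 25, 9 higher and 16 lower, after quantile normalization, and 47 without well-watered A24-39 array 2 and stressed A24-39 array 3, which enter only through the shared estimate of spread. In a fit of the 6 Y12-3 arrays alone 53 were called, 29 higher and 24 lower. With the replicate number as a block 22 were called, 7 higher and 15 lower. The share of all probe sets called was not counted in these alternative fits. Changes in these counts are therefore not read as traits of the members. For dap, one of the poly-A control RNAs, the 3′ minus 5′ signal averaged 0.841 ± 0.032 units in stressed Y12-3, against 1.27 ± 0.27 in well-watered Y12-3 (SD, n = 3 each). Its part in the response was not tested.

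Within A24-39, limma called 9 members, against 10.7% of all probe sets, 2 higher and 7 lower, or 1.27% and 4.43%, against 5.35% and 5.36% of all probe sets. The median response was -0.14 units, and 138 of the 158 members had a lower mean under stress. The median was 0.05, and 50 members were lower, without well-watered A24-39 array 2. It was -0.32, and 153 members were lower, without well-watered A24-39 array 3, where 26 were called, 2 higher and 24 lower. Leaving out well-watered array 2 and stressed array 3 gave a median of -0.03, with 107 members lower and 7 called, 2 higher and 5 lower. Calls over all probe sets were not counted without these arrays. The median changed sign with well-watered array 2. The dap 3′ minus 5′ signal averaged 1.05 ± 0.06 units in stressed A24-39, against 1.21 ± 0.13 in well-watered A24-39 (SD, n = 3 each).

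The members called lower in both genotypes numbered 7, or 4.43%, against 4.2% of all probe sets, and those called higher in both numbered 2, or 1.27%, against 4.32%. Called in Y12-3 and not in A24-39 were 19 members, against 10.6% of all probe sets, and 0 were called in A24-39 and not in Y12-3, against 2.17%, counts that do not test a difference between genotypes. The difference of the responses is the difference of the contrasts that chose the members, so it is a description here. limma called 0 members for it, against 0.0851% of all probe sets, and 19 at an unadjusted p under 0.05, which is 12% against 8.34%. With array weights 2 members were called, both with the higher response in Y12-3, and 1 in that direction after the spike-in shift. Without well-watered A24-39 array 2 the 2 called had the lower response in Y12-3. Calls over all probe sets were not counted in these alternative fits. The genotype difference was larger under stress in 116 members and smaller in 42, with a median change of 0.17 unit. Without well-watered A24-39 array 2 it was larger in 72 and smaller in 86, and without that array and stressed A24-39 array 3 larger in 92 and smaller in 66.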

How the data were processed

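The deposited value table holds a score for 61290 probe sets on 12 arrays, made by the authors; per the submitters' processing notes RMA was used, in an unstated version. The deposited scores are log-like, with array means near 0; the labels do not state their base, centring or scaling. They were used as deposited. The 175 control probe sets were left out. The fit was made with limma 3.58.1 in R 4.3.3 (lmFit, eBayes), with 1 mean per group, 12 arrays and 8 residual degrees of freedom, and Benjamini-Hochberg adjustment over 61115 probe sets with a threshold of 0.05. It was checked on simulated data with independent arrays and equal spread in all groups. That check does not cover the unequal spread of the members. Spike-in shifts used 63 control probe sets.

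The members, lists and tests were chosen with earlier results of these data known. Named were members with a symbol, the 6 largest sums of both differences, the 6 highest and 6 lowest called mean stress responses, the clusters with the most members, the 2 probe sets on each side of the threshold, the 4 members brightest in A24-39 and members past the interaction test, of which there were 0. The lists of dehydrins, tubulins, cell wall enzymes, antioxidants, thionins and transporters matched 1, 2, 1, 2, 2 and 0 probe sets of the array by symbol, 0 of them members.

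Same-numbered arrays of the genotypes deviated together from their group means (r = 0.17 to 0.575 in stressed and 0.197 to 0.278 in well-watered roots). Arrays with different numbers had r of -0.51 to 0.175 in stressed and -0.189 to -0.0167 in well-watered roots, so the stressed ranges overlapped. Same-numbered stressed and well-watered arrays of a genotype did not deviate together, with r of -0.104 to 0.0548 in Y12-3 and -0.0389 to 0.126 in A24-39. The number of arrays limits the precision.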

Additional observations from a re-analysis of the deposited data

How the results depend on the processing

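The rule gave 113 to 187 members when 1 array was left out, 102 of them in every such choice, with the lowest number without well-watered A24-39 array 3 and the highest without well-watered A24-39 array 2. It gave 303 members at a threshold of 0.6 unit and 94 at 1 unit. The spike-in shift gave 170 and the median of 3 arrays 165. Leaving out 1 array moved the members called for the mean stress response between 19 and 43, for Y12-3 between 16 and 42, for A24-39 between 7 and 26 and for the interaction between 0 and 2. It moved the members at background in A24-39 between 20 and 60, those with a larger difference under stress between 72 and 137, and the other probe sets of the clusters above 0 in both waterings between 105 and 117, against 111 with all arrays. Array weights called 46, 44 and 27 members for the mean, Y12-3 and A24-39 responses and 2 for the interaction; the spike-in shift called 1 for the interaction, and a fit of the 6 Y12-3 arrays alone called 53. Without well-watered A24-39 array 2 and stressed A24-39 array 3, added after seeing the data, the Y12-3 response called 47, the interaction 2, and 72 members were at background in A24-39; a limit from reporter controls put 65 there. A threshold of 0 in the held-out arrays gave shares of 100%, 99.4% and 100%. The cause of these changes was not tested. Calls over all probe sets were not counted under these alternatives. A change in a count of called members is therefore not read as a trait of the members. With the replicate number as a block, 26, 22 and 10 members were called for the mean, Y12-3 and A24-39 responses and 0 for the interaction, with the Y12-3 calls higher under stress at 7, against 14 without the block, and the other counts within 1.5 times. A random block for same-numbered arrays of 1 watering gave 25, 28 and 9. Of the stress responses of the named probe sets under these alternatives, 440 kept their side of the threshold, 17 lost and 3 gained a call, and none changed direction among the called. Signal near background limits the differences of members at or under the limit in A24-39.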

Other observations

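In 3 transcript clusters a member stood beside probe sets that were lower in Y12-3 by at least 0.8 unit in both waterings. Smaller opposite differences occurred in further clusters. They were picked after their values were seen, and no test was run. In Ta.22966, the member Ta.22966.2.S1_at had means of 2.28 in stressed Y12-3 and 0.58 in stressed A24-39, while Ta.22966.3.S1_at had 0.24 in stressed Y12-3 and 2.67 in stressed A24-39. Their differences were 1.70 and -2.43 under stress, and 1.26 and -2.15 in well-watered roots. A further probe set of that cluster, Ta.22966.1.S1_x_at, was bright in every group and differed by -0.29 and -0.11 units. In Ta.28354, the member Ta.28354.3.S1_x_at differed by 1.01 and 1.53 units and Ta.28354.4.S1_at by -2.43 and -1.85. In Ta.27657, which has 14 probe sets, Ta.27657.9.S1_at differed by 1.71 and 1.13 and Ta.27657.2.S1_x_at by -1.04 and -1.35, while most of the others differed by less than 1 unit in both waterings.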
